A study of Mus musculus with 16 samples.

Results

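The genes described here are Hdac1 to Hdac10, the classical histone deacetylases of classes I, IIa and IIb, whose enzymes hold a zinc ion in the active site. They were chosen by name, because butyrate inhibits enzymes of this family, and not by any measured value: 10 genes of the 39179 rows of the count table. The names occur on 11 rows, since Hdac4 stands on 2 rows with different identifiers. The row ENSMUSG00000026313 was used as Hdac4, and the other, ENSMUSG00000073617, which was not matched to GENCODE M21, was kept apart.

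Splenic B cells of NOD.LT mice, which belong to the non-obese diabetic (NOD) strains and develop autoimmune diabetes, gave poly(A) RNA for stranded sequencing. Mice were culled at 15 weeks of age after 5 weeks on HAMSB, HAMSA, HAMS or NP, with free access to the food. HAMS is high-amylose maize starch, which resists digestion and is fermented in the colon, and the starch of HAMSA carries acetate and that of HAMSB butyrate. NP is the diet set against the starches. Its libraries are titled GD, and the feeding protocol in the labels names a diet Gordons in its place. All mice shared the strain and the age, and no allele, transgene or other agent is named. The B cells were separated by negative selection on magnetic columns, so cells that escape the antibodies stay in the preparation. Each diet had 4 libraries, numbered 1, 2, 5 and 6 in HAMSB, 1, 2, 3 and 6 in HAMSA, 1, 4, 5 and 6 in HAMS and 1, 3, 4 and 5 in NP. The labels give 4 samples a diet but also speak of triplicates, and do not say which animals the numbers stand for. Any p-value given here thus refers to the spread among libraries, part of which may be technical.

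Histone deacetylases remove acetyl groups from lysines of histones and of other proteins, and acetylated histones mark active chromatin. Class I enzymes (Hdac1, Hdac2, Hdac3 and Hdac8) are mostly nuclear, and most of them act inside corepressor complexes. Class IIa enzymes (Hdac4, Hdac5, Hdac7 and Hdac9) have weak catalytic activity of their own, bind MEF2 transcription factors and leave the nucleus when kinases phosphorylate them. Class IIb holds Hdac6, a cytoplasmic deacetylase of tubulin, and Hdac10, a deacetylase of polyamines. Butyrate is a short-chain fatty acid that inhibits class I and class IIa enzymes and is known to act little on Hdac6 and Hdac10. Hdac11, the class IV enzyme, also depends on zinc but is not among these 10.

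The start regions of Hdac4, Hdac5 and Hdac9 are shown because these class IIa genes hold the widest differences between libraries or diets. The sequences are RefSeq windows on GRCm38.p6, from 250 bases before to 50 bases after an annotated start, written 5′ to 3′ on the strand of the gene, which is the minus strand for all of them. Capitals mark the motif GGGCGG on either strand, the core of a GC box bound by Sp factors, and a match to the MEF2 consensus. Hdac9 has 2 windows, the first at the upstream end of the gene and the second at a start inside it. The Hdac4 window also lies at a start inside its gene, whose upstream end is at 92195699 on chr1.
Hdac4, chr1:92180292-92180591: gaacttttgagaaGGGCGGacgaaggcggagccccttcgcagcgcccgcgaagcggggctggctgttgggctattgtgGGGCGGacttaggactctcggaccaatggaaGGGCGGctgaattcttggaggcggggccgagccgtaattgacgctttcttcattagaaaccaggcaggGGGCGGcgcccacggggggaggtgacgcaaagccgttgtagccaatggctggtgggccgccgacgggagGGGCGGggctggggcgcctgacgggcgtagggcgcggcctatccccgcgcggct
Hdac5, chr11:102230123-102230422: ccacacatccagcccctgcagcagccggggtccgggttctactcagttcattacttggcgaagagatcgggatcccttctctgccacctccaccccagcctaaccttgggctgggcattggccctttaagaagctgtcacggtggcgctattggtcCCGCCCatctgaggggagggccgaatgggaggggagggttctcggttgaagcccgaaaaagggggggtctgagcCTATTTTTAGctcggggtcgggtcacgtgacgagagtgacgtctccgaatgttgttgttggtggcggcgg
Hdac9, chr12:34917046-34917345: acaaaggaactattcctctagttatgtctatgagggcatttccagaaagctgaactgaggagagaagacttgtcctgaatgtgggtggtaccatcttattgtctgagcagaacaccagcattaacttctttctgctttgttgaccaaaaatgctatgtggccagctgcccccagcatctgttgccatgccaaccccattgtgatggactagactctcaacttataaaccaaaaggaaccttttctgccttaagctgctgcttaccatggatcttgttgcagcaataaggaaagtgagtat
Hdac9, chr12:34528840-34529139: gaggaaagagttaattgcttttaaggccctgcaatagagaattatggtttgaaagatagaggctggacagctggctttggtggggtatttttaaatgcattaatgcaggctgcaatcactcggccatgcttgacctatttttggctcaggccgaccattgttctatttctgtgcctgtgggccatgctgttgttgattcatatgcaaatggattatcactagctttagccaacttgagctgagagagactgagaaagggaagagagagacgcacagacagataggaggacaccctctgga
The Hdac4 window had 68.0% G and C, 32 CG dinucleotides and 5 copies of GGGCGG, and the Hdac5 window had 60.7% G and C, 18 CG dinucleotides, 1 copy of GGGCGG and 1 MEF2 match. The Hdac9 windows had 44.0% and 45.3% G and C, 0 and 3 CG dinucleotides and no match to either motif. Over all 32851 windows of the same length the median was 52.7% G and C and 7 CG dinucleotides, 35.7% of windows held GGGCGG and 3.19% a MEF2 match. The motif CCAAT, searched on both strands and free to overlap the others, occurred 2 times in the Hdac4 window, 2 times in the Hdac5 window and in neither Hdac9 window, and in 37.4% of all windows. Of the 10 genes, 7 were matched to 11 such windows in all, and the Hdac6 window (62.0% G and C) was the other one with 5 copies of GGGCGG. A gene count does not tell which start was used, and a match of letters is not a bound site.

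Hdac4 lies at chr1:91928779-92195699, Hdac5 at chr11:102194432-102230166 and Hdac9 at chr12:34047580-34917095 on GENCODE M21 (GRCm38). Hdac7 (chr15:97792664-97844502) and Hdac10 (chr15:89123307-89128700) share a chromosome, as do Hdac6 (chrX:7930120-7947889) and Hdac8 (chrX:102284639-102505359). Hdac1 lies at chr4:129516104-129542713 and Hdac2, the only member on the plus strand, at chr10:36974544-37001889. On that annotation Hdac5 overlaps Mir8101 and Hdac9 overlaps 4921508M14Rik on the same strand, where a read of either gene may be left uncounted.

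The libraries held 15053965 to 46206200 counts, and HAMSA libraries were the shallowest (15053965 to 30723337). Summed over 7 markers, B cell genes such as Cd79a and Ms4a1 stood at 7837 to 9528 CPM (counts scaled to a common library total, with TMM factors) in HAMSB, 8195 to 9668 in HAMSA, 7692 to 9387 in HAMS and 8076 to 9625 CPM in NP. Markers of other spleen cells were present as well. Erythroid markers summed to 501 to 6329 CPM in HAMSA against 63.6 to 1491 CPM in the other diets, and macrophage markers to 22.2 to 113 CPM in the starch diets against 118 to 247 CPM in NP. T cell markers summed to 96.6 to 269 CPM in HAMSB and 114 to 220 CPM in HAMSA. In HAMS and NP they summed to 69.2 to 148 and 76.4 to 104.5 CPM. Neutrophil markers summed to 37.7 to 224 CPM in HAMSB and 68.3 to 290 CPM in HAMSA. In HAMS and NP they summed to 4.59 to 100.8 and 7.77 to 56.5 CPM. The share of all reads lying outside annotated exons ran from 9.76% to 16.9% over the libraries, with HAMSA between 9.76% and 12.1%. The part of these mixtures in the levels of the 10 genes was not tested beyond the values given.

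All 10 genes were expressed in every library and passed the count filter, with counts between 70 (Hdac4 in HAMSA 3) and 9452 (Hdac10 in HAMSB 6). Divided by the exon length of each gene, the level of Hdac10 was the highest of the 10 in all 16 libraries. Hdac10 averaged 54.3 ± 7.94 CPM per kilobase of exon (SD, n = 16), which was 35.4% ± 2.39 of the summed level of the 10 genes. Hdac7, a class IIa enzyme known in the mouse to silence genes of other lineages in B cell progenitors, came next with 25.5 ± 3.05 CPM per kilobase and a share of 16.7%, below Hdac10 in 16 of 16 libraries.

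The class I genes Hdac3, Hdac1 and Hdac2 followed with 18.5 ± 1.92, 16.1 ± 1.13 and 14.4 ± 1.46 CPM per kilobase (SD, n = 16), and their ranges overlapped. Hdac3, the catalytic subunit of the NCoR/SMRT corepressors, was above Hdac1 in 13 of 16 libraries on this scale. With the length of the longest annotated transcript in place of the union of exons it was above Hdac1 in 0 of 16, so the order of these genes depends on the length used. Hdac1 was above Hdac2, its partner in the NuRD, Sin3 and CoREST complexes, in 13 of 16 libraries with the exon length and in 16 of 16 with the transcript length.

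Hdac5 stood at 11.98 ± 1.58 and Hdac6 at 6.92 ± 0.833 CPM per kilobase (SD, n = 16), apart in every library. Hdac8, a class I enzyme that deacetylates the cohesin subunit Smc3, and the class IIa gene Hdac9 averaged 2.21 ± 0.252 and 2.12 ± 0.671 CPM per kilobase. These neighbours did not separate, with Hdac8 higher in 11 of 16 libraries. Counted on its matched row alone, Hdac4 was the lowest of the 10 in every library, at 0.758 ± 0.254 CPM per kilobase and 0.498% of the sum. The second row named Hdac4 averaged 10.57 CPM, against 11.99 CPM for the matched row. It has no annotated length here and was left out of all levels per kilobase and shares, so the rank of Hdac4 holds for the matched row only.

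By class, the summed level per kilobase was divided into 33.7% ± 2.90 for class I, 26.4% ± 1.45 for class IIa and 39.9% ± 2.45 for class IIb (SD, n = 16). With the length of the longest transcript the shares were 36.1%, 28.7% and 35.1%, which turns the order of class I and class IIb. The class I share averaged 32.1% ± 4.71 in HAMSB, 34.9% ± 2.62 in HAMSA, 33.7% ± 1.95 in HAMS and 34.2% ± 1.79 in NP (SD, n = 4 each), and the ranges of the diets overlapped. Within class IIa, Hdac7 held 62.2% ± 2.47 of the level in HAMSB, 62.7% ± 0.863 in HAMSA, 64.2% ± 4.33 in HAMS and 63.3% ± 3.12 in NP. Hdac9 held 4.84% ± 0.435 of it in HAMSB, 4.70% ± 1.84 in HAMSA, 7.17% ± 1.95 in HAMS and 4.34% ± 0.998 in NP.

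**Figure D1:**
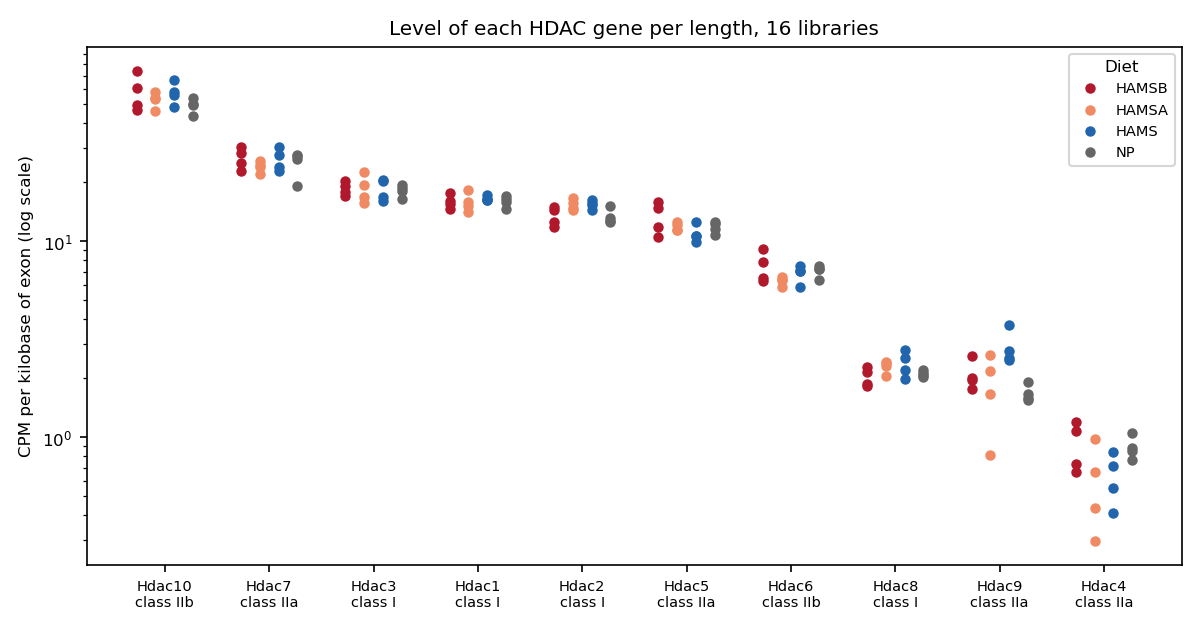
Level of each HDAC gene in CPM per kilobase of exon (log axis), 1 point per library and colour by diet, with genes ordered by their mean over 16 libraries. Hdac10 sits above every other gene, Hdac3, Hdac1 and Hdac2 overlap, and Hdac9 and Hdac4 spread the widest.

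Between diets, none of the 10 genes passed edgeR's quasi-likelihood test after Benjamini-Hochberg adjustment over 15021 genes (threshold 0.05) in any of the 6 pairs of diets or in the test for any difference among the diets. The question that the diets pose for these genes is whether starch, or starch carrying acetate or butyrate, goes with another level of the RNA of the enzymes that butyrate inhibits. Fewer cells of a type and less RNA per cell cannot be told apart in such bulk libraries. In HAMSB against HAMS, 0 of 10 members were called, where 1.68% of all genes tested were, and 2 of 10 had an unadjusted p under 0.05, where 14.1% of all genes had.

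In HAMSA against HAMS, 0 of 10 were called (0% of all genes) and 1 of 10 had an unadjusted p under 0.05 (11.7% of all genes). In HAMSB against HAMSA, 0 of 10 were called (0.779% of all genes) and 0 of 10 had an unadjusted p under 0.05 (19.4% of all genes).

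Against NP, 0 of 10 members were called in HAMSB (0.0732% of all genes), in HAMSA (1.41%) and in HAMS (4.33%). Unadjusted p-values were under 0.05 for 0 of 10 in HAMSB (6.89% of all genes), 1 of 10 in HAMSA (25.1%) and 2 of 10 in HAMS (19.3%). In the test for any diet difference 0 of 10 were called (3.78% of all genes) and 1 of 10, Hdac9, had an unadjusted p under 0.05 (22% of all genes). DESeq2 called 1 member, Hdac9 in HAMS against NP, where it called 8.42% of all genes, and limma voom called 0 in every comparison.

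The sizes of the differences were small for most members. The median absolute log2 fold change of the 10 genes was 0.15 in HAMSB against HAMS, where the median over all genes was 0.17, and 0.06 in HAMSB against NP, where it was 0.12. In HAMSA against HAMS it was 0.10 against 0.19 over all genes, in HAMSB against HAMSA 0.17 against 0.23, in HAMSA against NP 0.11 against 0.25 and in HAMS against NP 0.14 against 0.20.

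**Figure D2:**
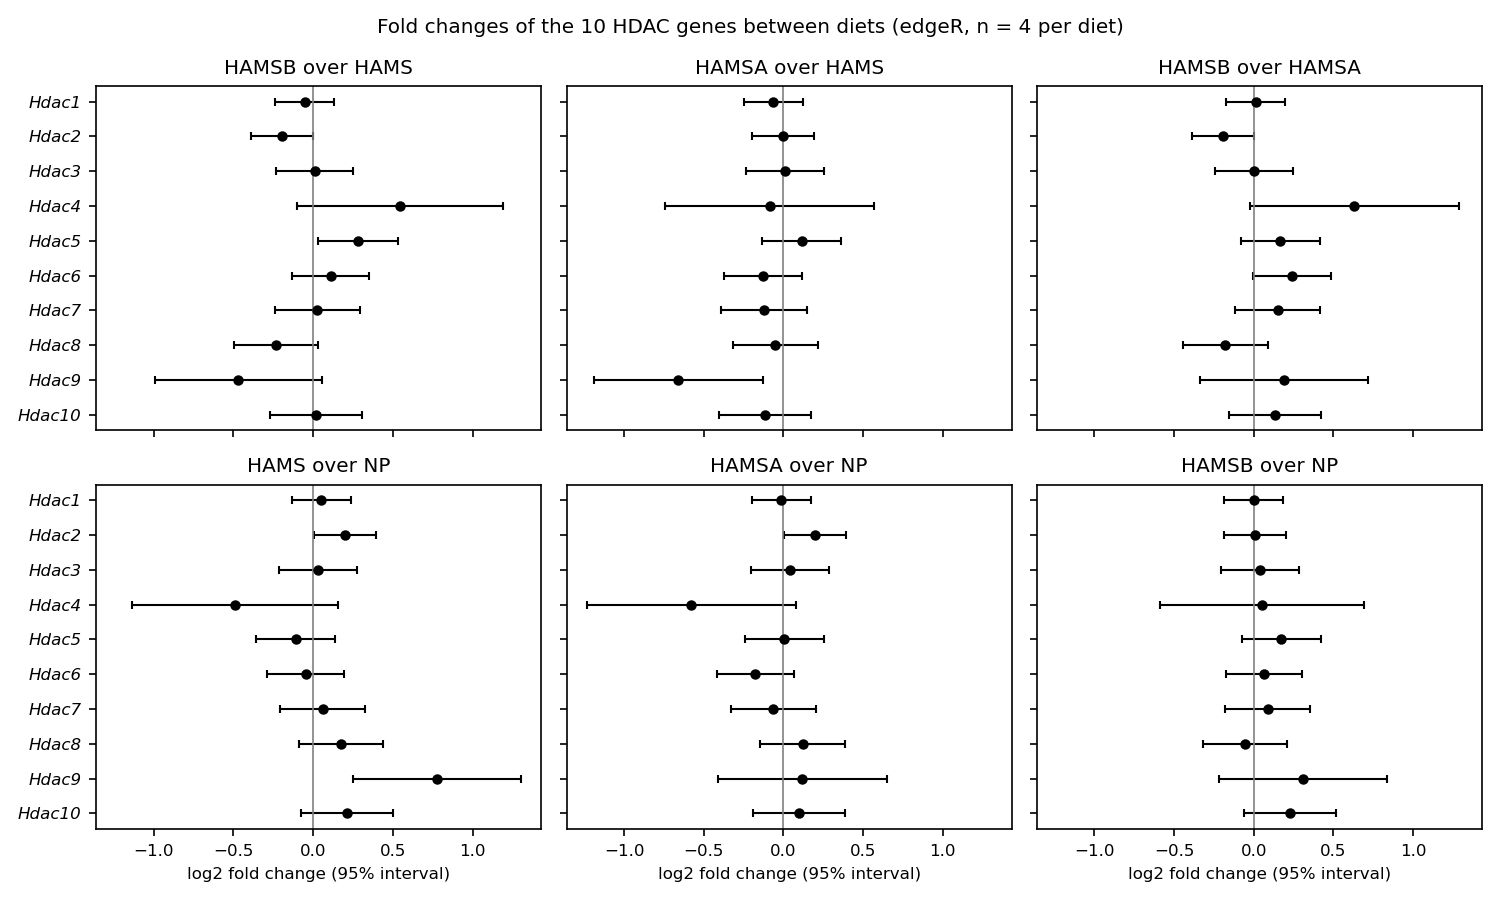
Log2 fold changes of the 10 HDAC genes in the 6 comparisons of diets (points, with 95% intervals from edgeR; the diet named first over the second, 4 libraries each). Hdac4 and Hdac9 have the widest intervals and the largest estimates, 0.78 for Hdac9 in HAMS over NP, and Hdac1 and Hdac3 lie close to 0 in every panel.

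Among the class I genes, Hdac1 and Hdac3 had log2 fold changes close to 0 in all 6 comparisons. Hdac1 averaged 55.1 ± 4.35 CPM in HAMSB, 54.7 ± 6.09 in HAMSA, 57.2 ± 1.38 in HAMS and 55.1 ± 3.53 CPM in NP (SD, n = 4 each). Its log2 fold change of HAMSB over HAMS was −0.05, with a 95% interval from −0.24 to 0.13, and that of HAMSB over NP ran from −0.19 to 0.18. Hdac3 averaged 75.6 ± 5.73 CPM in HAMSB, 75.6 ± 12.3 in HAMSA, 75.1 ± 9.36 in HAMS and 73.6 ± 5.19 CPM in NP, and its log2 fold change of HAMSB over HAMS had an interval from −0.23 to 0.25. The intervals of both genes held 0 in all 6 comparisons.

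Hdac2 stood at 65.0, 67.5, 52.9 and 56.0 CPM in HAMSB libraries 1, 2, 5 and 6, and at 74.2, 69.9, 66.6 and 64.8 CPM in HAMSA libraries 1, 2, 3 and 6. It stood at 64.6, 70.4, 72.9 and 68.4 CPM in HAMS libraries 1, 4, 5 and 6, and at 68.3, 56.4, 56.9 and 58.6 CPM in NP libraries 1, 3, 4 and 5. HAMSB libraries 5 and 6 and NP libraries 3, 4 and 5 were the low ones, HAMSB libraries 1 and 2 and NP library 1 lay among the other diets, and all pairs of diets overlapped. The log2 fold change was −0.19 ± 0.09 (SE) in HAMSB over HAMS (adjusted p = 0.354, edgeR's quasi-likelihood test), 0.20 ± 0.09 in HAMSA over NP (adjusted p = 0.194) and 0.20 ± 0.09 in HAMS over NP (adjusted p = 0.242).

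Hdac8 was the least expressed class I gene, with 9.85 ± 1.08 CPM in HAMSB, 11.1 ± 0.806 in HAMSA, 11.6 ± 1.74 in HAMS and 10.3 ± 0.364 CPM in NP (SD, n = 4 each). Its log2 fold change of HAMSB over HAMS was −0.23 with a 95% interval from −0.49 to 0.03. No pair of diets was separated for Hdac8.

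**Figure D3:**
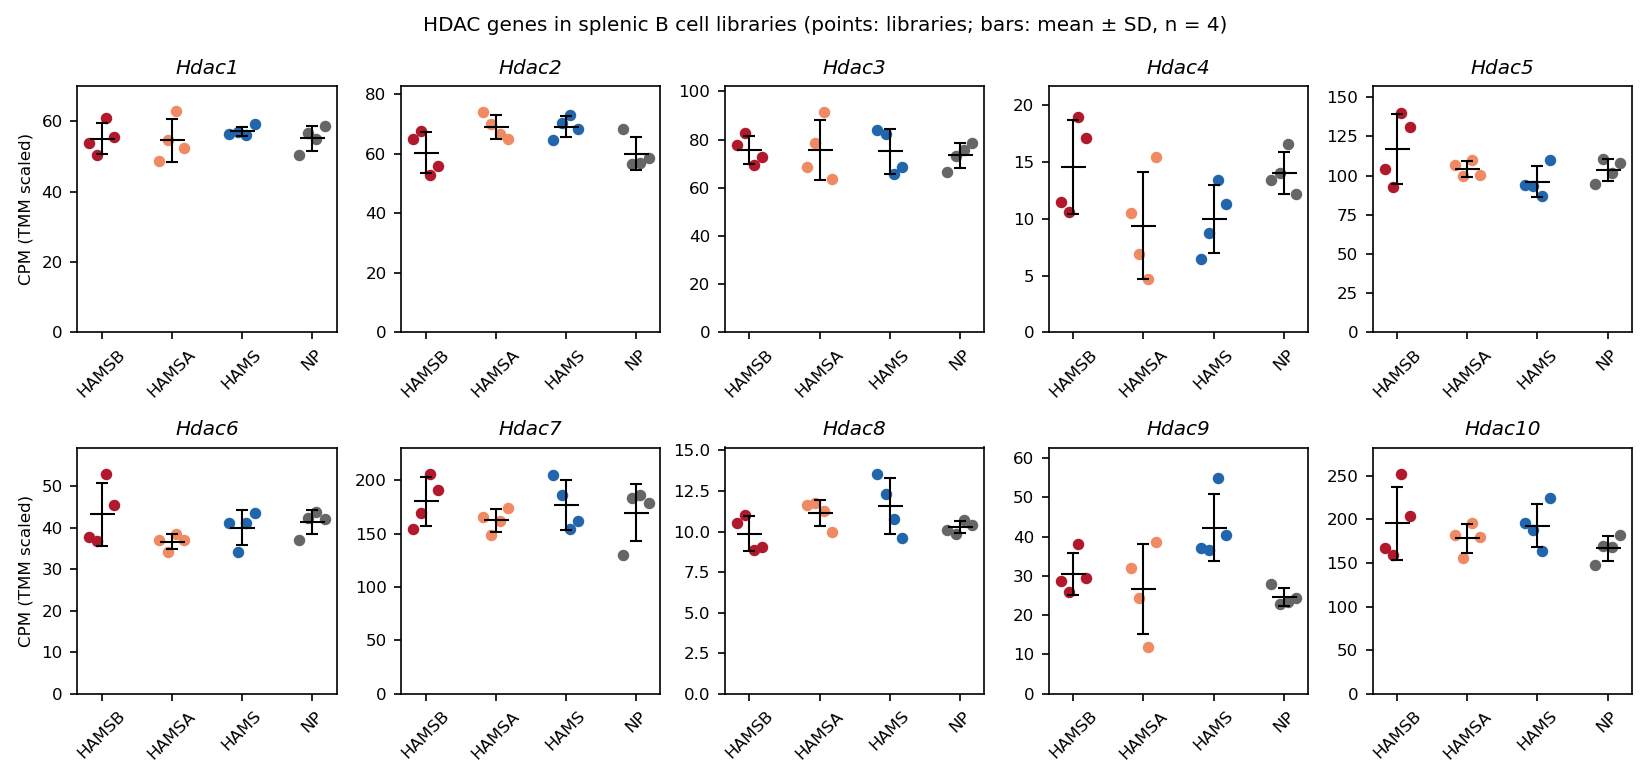
CPM of each HDAC gene by diet (points, 1 per library; bars, mean ± SD, n = 4), each panel with its own axis from 0. The 4 HAMS libraries of Hdac9, between 36.6 and 54.8 CPM, lie above the 4 NP libraries, between 22.7 and 28.0 CPM, and every other panel has overlapping diets.

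The class IIa genes held the largest differences. Hdac9 stood at 28.7, 25.8, 38.1 and 29.4 CPM in HAMSB libraries 1, 2, 5 and 6, and at 31.9, 24.4, 11.9 and 38.5 CPM in HAMSA libraries 1, 2, 3 and 6. It stood at 37.2, 36.6, 54.8 and 40.4 CPM in HAMS libraries 1, 4, 5 and 6, and at 28.0, 22.7, 23.4 and 24.4 CPM in NP libraries 1, 3, 4 and 5. All HAMS libraries were above all NP libraries, the only separation of the 10 genes in that comparison, where the groups of 12.6% of all genes did not overlap. In the other 5 comparisons 0 of 10 members separated, where the shares of all genes were 7.3% in HAMSB against HAMS, 4.01% in HAMSA against HAMS, 8.81% in HAMSB against HAMSA, 16.4% in HAMSA against NP and 5.27% in HAMSB against NP.

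Hdac9 averaged 42.2 ± 8.54 CPM in HAMS and 24.6 ± 2.34 CPM in NP (SD, n = 4 each), a log2 fold change of 0.78 ± 0.25 (SE; 95% interval 0.25 to 1.31). That difference did not pass edgeR's quasi-likelihood test (adjusted p = 0.0931, unadjusted p = 0.0065). It passed with DESeq2 (adjusted p = 0.0339), with the 2 diets fitted alone (adjusted p = 0.0173; 3.55% of all genes called) and when the outside-exon share was a covariate (adjusted p = 0.0289; 7.7% of all genes called), while over the 20 other settings the adjusted p ran from 0.0173 to 0.236 and the log2 fold change from 0.54 to 0.95. Within libraries numbered 1 to 4 the log2 fold change was 0.58 and within those numbered 5 and 6 it was 0.95. Macrophage markers moved in the same comparison, with 6 of 7 lower, none at 0, and a summed level of 22.2 to 62.7 CPM in HAMS against 118 to 247 CPM in NP, and their part in the Hdac9 value was not tested.

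No other difference of Hdac9 passed the test. The log2 fold change was −0.47 ± 0.25 in HAMSB over HAMS (SE; adjusted p = 0.420, edgeR), −0.66 ± 0.25 in HAMSA over HAMS (95% interval −1.19 to −0.13; adjusted p = 0.365), 0.19 ± 0.25 in HAMSB over HAMSA (adjusted p = 0.673) and 0.31 ± 0.25 in HAMSB over NP (adjusted p = 0.951). HAMSA library 3 was the lowest of all 16 at 11.9 CPM, and the highest library, HAMS 5, held 4.599 times that level. Without HAMSA library 3 the log2 fold change of HAMSA over HAMS was −0.42.

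Hdac4 stood at 11.5, 10.6, 19.02 and 17.1 CPM in HAMSB libraries 1, 2, 5 and 6, and at 10.5, 6.93, 4.66 and 15.4 CPM in HAMSA libraries 1, 2, 3 and 6. It stood at 6.50, 8.72, 13.4 and 11.3 CPM in HAMS libraries 1, 4, 5 and 6, and at 13.4, 14, 16.6 and 12.1 CPM in NP libraries 1, 3, 4 and 5. In the 3 starch diets the libraries numbered 5 and 6 were above those numbered 1 to 4, and every pair of diets overlapped.

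The log2 fold change of Hdac4 was 0.54 ± 0.30 in HAMSB over HAMS (SE; adjusted p = 0.454, edgeR's quasi-likelihood test), 0.63 ± 0.31 in HAMSB over HAMSA (adjusted p = 0.267), −0.58 ± 0.31 in HAMSA over NP (adjusted p = 0.248) and −0.49 ± 0.30 in HAMS over NP (adjusted p = 0.401). Within libraries numbered 1 to 4, HAMSA over NP gave −0.97 and passed the test (adjusted p = 0.0271), in a fit that called 17.6% of all genes, and within those numbered 5 and 6, with 1 library each, it gave 0.34. With the outside-exon share as a covariate it was 0.10, and the adjusted p over the 20 settings ran from 0.0271 to 0.937. Leaving out HAMSA 6 gave −0.92 and leaving out HAMSA 3 gave −0.37. The second row named Hdac4 gave 12.4 ± 3.36 CPM in HAMSA and 8.86 ± 1.59 CPM in NP (SD, n = 4 each; log2 fold change 0.48 ± 0.18 (SE), adjusted p = 0.123), a difference of the opposite sign.

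Hdac5 stood at 104, 92.5, 140.2 and 131 CPM in HAMSB libraries 1, 2, 5 and 6, and at 106, 100, 109.9 and 100.2 CPM in HAMSA libraries 1, 2, 3 and 6. It stood at 94.1, 93.5, 86.9 and 110.1 CPM in HAMS libraries 1, 4, 5 and 6, and at 94.5, 110.5, 102 and 108 CPM in NP libraries 1, 3, 4 and 5. HAMSB libraries 5 and 6 were above the 14 other libraries and HAMSB libraries 1 and 2 lay among them. The log2 fold change of HAMSB over HAMS was 0.28 ± 0.12 (SE; 95% interval 0.03 to 0.53; adjusted p = 0.285, edgeR), 0.46 within numbers 5 and 6 and 0.06 within numbers 1 to 4.

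Hdac7 averaged 180.3 ± 22.7 CPM in HAMSB, 163 ± 10.6 in HAMSA, 177 ± 23.2 in HAMS and 169.8 ± 26.5 CPM in NP (SD, n = 4 each). NP library 1 was low at 130.3 CPM, and the other NP libraries lay between 179 and 186 CPM. The log2 fold change of HAMSB over HAMS was 0.03, with a 95% interval from −0.24 to 0.29.

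Of the class IIb genes, Hdac6 averaged 43.2 ± 7.60 CPM in HAMSB, 36.6 ± 1.82 in HAMSA, 40.02 ± 4.10 in HAMS and 41.3 ± 2.92 CPM in NP (SD, n = 4 each). Its largest difference was that of HAMSB over HAMSA, 0.24 ± 0.11 (log2 fold change with SE; adjusted p = 0.260, edgeR). Hdac10 averaged 195 ± 42.3 CPM in HAMSB, 178 ± 16.3 in HAMSA, 193 ± 24.8 in HAMS and 167 ± 14.4 CPM in NP, and its log2 fold change of HAMSB over NP was 0.23 with a 95% interval from −0.06 to 0.52. The highest library of Hdac5, Hdac6, Hdac7 and Hdac10 alike was HAMSB 5, which also had the largest share of reads outside exons, 16.9%.

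Hdac9 and Hdac4, the 2 least abundant class IIa genes, had differences of opposite sign between HAMS and NP, and their ratio was examined after those values were seen. The ratio of Hdac9 CPM to Hdac4 CPM was 2.49, 2.44, 2.00 and 1.72 in HAMSB libraries 1, 2, 5 and 6, and 3.04, 3.52, 2.56 and 2.49 in HAMSA libraries 1, 2, 3 and 6. It was 5.72, 4.2, 4.10 and 3.56 in HAMS libraries 1, 4, 5 and 6, and 2.09, 1.62, 1.41 and 2.01 in NP libraries 1, 3, 4 and 5. With Hdac4 taken from its matched row alone, every HAMS library was thus above every library of the other diets. Every HAMSA library was above every NP library, and HAMSB met HAMSA at 2.49 and overlapped NP. The second row named Hdac4 averaged 12.4 CPM in HAMSA and 8.86 CPM in NP. In HAMSA library 3 it stood at 17.3 CPM, against 4.66 CPM on the matched row. A ratio with that row was not computed, so the order of the diets holds for the matched row only. No test is given, since the ratio was chosen for this pattern. Of the 45 ratios between the 10 genes, 8 (17.8%) did not overlap between HAMS and NP and 7 (15.6%) between HAMSB and HAMS, and Hdac9 was part of 6 and 5 of them. In the other comparisons 2 (4.44%) did not overlap in HAMSA against HAMS, 1 (2.22%) in HAMSB against HAMSA, 3 (6.67%) in HAMSA against NP and 2 (4.44%) in HAMSB against NP. The 1 in HAMSB against HAMSA was this same ratio of Hdac9 to Hdac4, although its closest HAMSB and HAMSA libraries both stood at 2.493.

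**Figure D4:**
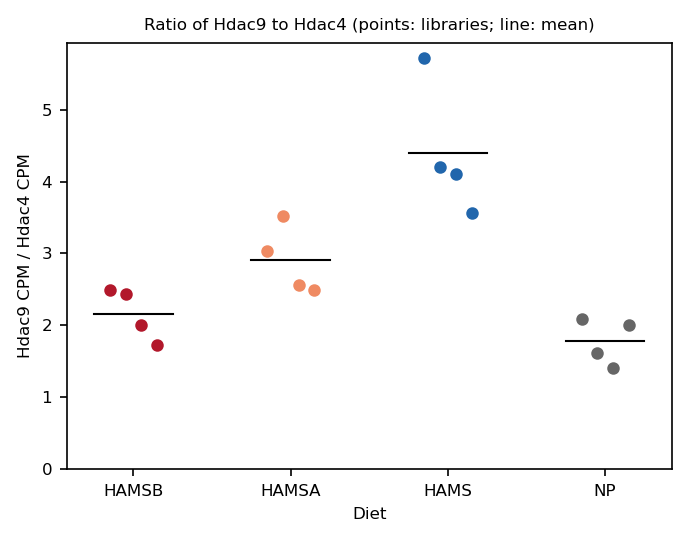
Ratio of Hdac9 CPM to Hdac4 CPM in each library (points) with the mean of each diet (lines), on an axis from 0. The Hdac4 value is that of its matched row alone. The HAMS libraries lie between 3.56 and 5.72, above the HAMSA (2.49 to 3.52), HAMSB (1.72 to 2.49) and NP (1.41 to 2.09) libraries.

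Across the 16 libraries, the level of 4 of the 10 genes went with the share of reads outside annotated exons, a library measure that differs between diets and between the numbers of the labels. The same relation was not computed for all genes, so the count cannot be read as a trait of the members. The permutations exchanged libraries across diets. Hdac6 rose with it (Pearson r = 0.859, permutation p = 4e-05, adjusted p = 0.0004 over the 10 genes; Spearman rho = 0.859, permutation p = 0.00012, adjusted p = 0.0012), and r was 0.81 without the 2 libraries farthest from the median share, HAMSA 2 and HAMSB 5. Within libraries numbered 1 to 4 (n = 10) r was 0.82 and within those numbered 5 and 6 (n = 6) it was 0.799.

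Hdac4 rose with the share too (r = 0.752, permutation p = 0.00054, adjusted p = 0.0027; rho = 0.779, permutation p = 0.00062, adjusted p = 0.0031), with r = 0.663 without those 2 libraries, 0.777 within numbers 1 to 4 and 0.259 within numbers 5 and 6. Hdac8 fell with it (r = −0.658, permutation p = 0.0054, adjusted p = 0.018; rho = −0.709, permutation p = 0.00284, adjusted p = 0.00947), with r = −0.559, −0.557 and −0.284 in the same 3 subsets. Hdac2 fell with it by Pearson's r alone (r = −0.603, permutation p = 0.0145, adjusted p = 0.0363; rho = −0.544, permutation p = 0.0318, adjusted p = 0.0795), with r = −0.467, −0.783 and −0.266. Hdac9 had r = 0.352 (permutation p = 0.183, adjusted p = 0.261) and rho = 0.215 (permutation p = 0.422, adjusted p = 0.422). For deviations from the diet means r was 0.84 for Hdac6, 0.667 for Hdac4, −0.701 for Hdac8, −0.446 for Hdac2 and 0.435 for Hdac9.

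**Figure D5:**
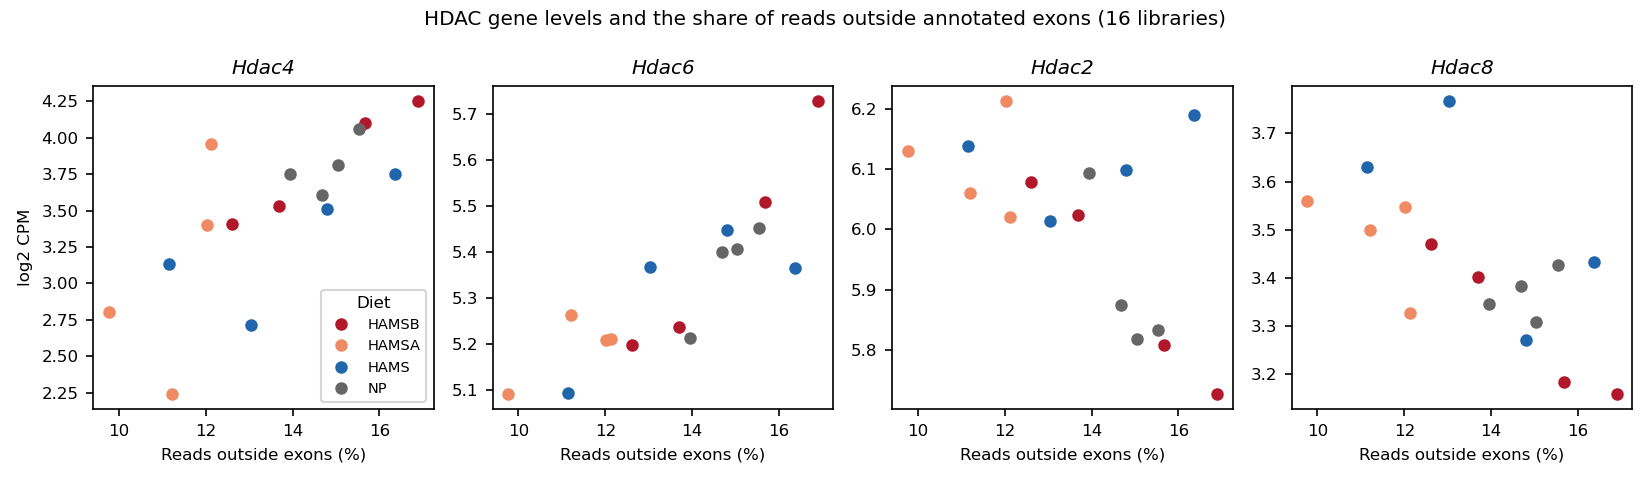
Log2 CPM of Hdac4, Hdac6, Hdac2 and Hdac8 against the percent of reads outside annotated exons in 16 libraries, coloured by diet, with axes that do not start at 0. Hdac6 and Hdac4 climb with the share (r = 0.859 and 0.752), Hdac2 and Hdac8 decline (r = −0.603 and −0.658), and the HAMSA libraries (9.76% to 12.1%) sit at the left.

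The members also varied with each other over the 16 libraries. Of the 45 pairs, 13 had an adjusted permutation p under 0.05 by Pearson's r, 5 of them positive and 8 negative. The share among pairs of other genes was not computed, so this count cannot be read as a trait of the members. The closest positive pair was Hdac5 with Hdac10 (r = 0.719, permutation p = 0.00206, adjusted p = 0.0169; rho = 0.612, permutation p = 0.0138, adjusted p = 0.0529). Its r was 0.442 without the 2 farthest libraries, 0.224 within numbers 1 to 4, 0.854 within numbers 5 and 6 and 0.923 for deviations from the diet means, so its size depends on the libraries taken.

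The strongest negative pair was Hdac2 with Hdac6 (r = −0.765, permutation p = 0.00045, adjusted p = 0.0128; rho = −0.729, permutation p = 0.00173, adjusted p = 0.0347), with r = −0.584 without the 2 farthest libraries, −0.854 within numbers 1 to 4 and −0.677 within numbers 5 and 6. Hdac4 and Hdac8 followed (r = −0.757, permutation p = 0.00057, adjusted p = 0.0128; rho = −0.824, permutation p = 0.00018, adjusted p = 0.0081), with r = −0.8, −0.648 and −0.675 in those subsets. All 4 genes of these pairs also varied with the share of reads outside exons.

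Among 10211 genes searched, those whose log2 CPM followed Hdac4 most closely over the 16 libraries were Aak1 (r = 0.978) and Zfp236 (r = 0.977), as a description. Hdac9 was followed by Nfatc3 (r = 0.936) and Ppp4r2 (r = 0.931), Hdac10 by Mapk11 (r = 0.961) and Pold1 (r = 0.931) and Hdac5 by Pik3cd (r = 0.909) and Mnt (r = 0.905). The closest gene to Hdac2 was Vapa (r = 0.962), to Hdac3 Cyb561d2 (r = 0.946), to Hdac6 Map4k2 (r = 0.943), to Hdac1 Coq6 (r = 0.9), to Hdac8 Mnat1 (r = 0.895) and to Hdac7 Fam3a (r = 0.885).

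Genes of the proteins that work with the deacetylases were taken from lists. Of the subunits of the class I complexes, 0 of 12 tested in NuRD, 0 of 6 in CoREST, 0 of 5 in NCoR/SMRT and 0 of 3 in MiDAC passed edgeR's test in any comparison. The share of all genes called ran from 0% in HAMSA against HAMS to 4.33% in HAMS against NP. The smallest p in each was that of Mbd3 (NuRD; HAMSB over HAMSA, log2 fold change −0.48, adjusted p = 0.152), Kdm1a (CoREST; HAMSB over HAMSA, −0.14, adjusted p = 0.255), Tbl1xr1 (NCoR/SMRT; HAMS over NP, 0.35, adjusted p = 0.121) and Dnttip1 (MiDAC; HAMSB over HAMSA, −0.32, adjusted p = 0.166). In the Sin3 complex 2 of 13 fell in HAMSB relative to HAMSA, where 0.779% of all genes were called, and none in another comparison. Sap30l averaged 18.2 ± 1.61 CPM in HAMSB and 32.8 ± 5.47 CPM in HAMSA (log2 fold change −0.85 ± 0.14 (SE), adjusted p = 0.0159), and Ing2 19.5 ± 0.638 against 28.8 ± 3.33 CPM (−0.56 ± 0.12, adjusted p = 0.0333). The Sap30l call ended without any 1 of HAMSA 2, HAMSA 3, HAMSB 5 and HAMSB 6, and the Ing2 call without any 1 of the 8 libraries but HAMSA 6. Both calls also ended with only these 2 diets fitted, with the outside-exon share as a covariate and within either set of numbers, and that of Ing2 with limma voom, without TMM and without the count filter.

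Of the class IIa partners, the Mef2 factors and the Ywha adaptors that hold phosphorylated class IIa enzymes in the cytoplasm, 5 of 9 tested rose in HAMS relative to NP, where 4.33% of all genes were called, and 0 fell. The median log2 fold change of the 9 was 0.39, and that of all genes 0.01. In the same comparison 6 of 7 macrophage markers were lower, with a median of −2.43 over the 7 and none at 0, and their part in the list was not tested. Ywhaz averaged 342 ± 26.4 CPM in HAMS and 229 ± 19.9 CPM in NP (SD, n = 4 each; log2 fold change 0.58 ± 0.10 (SE), adjusted p = 0.00601), and its call held in each of the 8 fits without 1 library. Ywhah averaged 179 ± 18.8 against 114 ± 15.4 CPM (0.66 ± 0.13, adjusted p = 0.0124). Ywhag (0.39, adjusted p = 0.0286), Ywhae (0.39, adjusted p = 0.0372) and Mef2d (0.60, adjusted p = 0.0384; named after its value was seen) were the others.

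The call of Ywhah in HAMS against NP ended without NP 3, NP 5 or HAMS 4, that of Ywhag without NP 3, NP 4, NP 5, HAMS 4 or HAMS 6, and that of Ywhae without NP 3, NP 4, NP 5, HAMS 1, HAMS 4 or HAMS 6. Among these omissions that of Mef2d held only without HAMS 1. The calls of Mef2d, Ywhae and Ywhag also ended without TMM, and none of the 5 was called within numbers 5 and 6. The call of Ywhae also ended with only these 2 diets fitted and without the count filter, and that of Ywhag without the count filter. In HAMSB relative to HAMS 1 of the 9 fell, Ywhah (106 ± 9.15 CPM in HAMSB and 179 ± 18.8 CPM in HAMS; −0.76 ± 0.14, adjusted p = 0.00686), where 1.68% of all genes were called. The median of the list was −0.28 there, that of all genes 0.01. This Ywhah call held in each of the 8 fits without 1 library but ended within numbers 1 to 4 and within numbers 5 and 6.

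Of 13 kinases tested from a list drawn up for class IIa enzymes, 1 was called, the salt-inducible kinase Sik1. Its level was 53.1 ± 1.11 CPM in HAMSB, 150.1 ± 91.1 in HAMSA, 345 ± 58.2 in HAMS and 113 ± 25.7 CPM in NP (SD, n = 4 each). The log2 fold change was −2.70 ± 0.31 in HAMSB over HAMS (SE; adjusted p = 0.000356), 1.61 ± 0.30 in HAMS over NP (adjusted p = 0.00682) and −1.50 ± 0.30 in HAMSB over HAMSA (adjusted p = 0.0273). Of all genes, 1.68%, 4.33% and 0.779% were called in these comparisons. The call of HAMSB over HAMSA ended without any 1 of HAMSA 3, HAMSB 1, HAMSB 2, HAMSB 5 and HAMSB 6, and also with only these 2 diets fitted, with the outside-exon share as a covariate and within numbers 1 to 4, with the log2 fold change between −2.41 (within numbers 5 and 6) and −0.997 (without HAMSA 6) over all settings, and the other 2 calls held in each fit without 1 library.

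Of 6 genes known to respond to HDAC inhibitors in cultured cells, 1 was called, Cdkn1a, which encodes the cell cycle inhibitor p21. Cdkn1a averaged 6.32 ± 0.57 CPM in HAMSB and 11.4 ± 2.52 CPM in HAMS (SD, n = 4 each; log2 fold change −0.85 ± 0.17 (SE), adjusted p = 0.016), and 11.4 ± 2.52 CPM in HAMS against 6.70 ± 1.31 CPM in NP (0.77 ± 0.17, adjusted p = 0.0183). Of all genes, 1.68% were called in HAMSB against HAMS and 4.33% in HAMS against NP. For Cdkn1a, HAMSB over NP gave −0.08 ± 0.17 (adjusted p = 0.999). The first call ended without HAMS 6, HAMSB 1 or HAMSB 6 and the second without NP 3, NP 4, NP 5 or HAMS 6. Both also ended with only the 2 diets of the comparison fitted and within either set of numbers. The median log2 fold change of the 6 genes was −0.57 in HAMSB over HAMS, where that of all genes was 0.01, and −0.21 in HAMSB over NP.

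Genes of other acetylation enzymes gave no call. These were Hdac11 (HAMS over NP, log2 fold change −0.40, adjusted p = 0.150 by edgeR's test), 7 sirtuins and 12 histone acetyltransferases. The smallest p among the sirtuins was that of Sirt5, a mitochondrial deacylase, at 4.18 ± 0.51 CPM in HAMSA and 6.44 ± 0.751 CPM in NP (−0.62, adjusted p = 0.0659). Among the acetyltransferases it was that of Kat6b (HAMSA over NP, −0.54, adjusted p = 0.0944).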

How the data were processed

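RNA sequencing counts of 16 libraries, 4 for each of 4 diets, were analysed. Per the submitters' processing notes, STAR, featureCounts (Subread), edgeR and limma were used; versions, genome build and annotation are not given in the sources used here. Raw counts per gene make up the deposited table, and each column sums to the assigned reads of the deposited counting summary. Of its 39179 identifiers, 37693 were found in GENCODE M21 (GRCm38). Coordinates and lengths come from it, and the authors may have used another annotation.

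The model was fitted with edgeR 4.0.16 in R 4.3.3: a filter with a minimum count of 10 (15021 genes, all 10 members), TMM scaling, 1 mean per diet (12 residual degrees of freedom) and the quasi-likelihood F-test with Benjamini-Hochberg adjustment at 0.05. Other settings included DESeq2 1.42.0 and limma 3.58.1. Log2 CPM used a prior count of 2, and correlations used 100000 permutations of the libraries (scipy 1.17.1).

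The fit was checked on simulated counts. The members and gene lists were chosen with earlier results of these data known. All members were described; of each list, called genes were named, up to 4 by smallest p, or else the 1 with the smallest p. Some genes of the lists are not reported here.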

Additional observations from a re-analysis of the deposited data

Results flagged for a closer look

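Hdac7 in NP library 1, at 130.3 CPM, lay far below the 3 other NP libraries, whose nearest value was 179 CPM and highest 186 CPM. The gap was 0.873 of the whole range of the 4 libraries. It was the 1 case among 40 groups looked at (10 genes in 4 diets), and chance alone marks about 1 in 20 groups of this kind.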

How the results depend on the processing

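The number of HDAC genes called stayed at 0 in 142 of 146 recomputed counts, and all 4 exceptions gave 1. These were Hdac9 in HAMS against NP with DESeq2 (8.42% of all genes called), with only the 2 diets compared (3.55%) and when the outside-exon share was a covariate (7.7%), and Hdac4 in HAMSA against NP within numbers 1 to 4 (17.6%); the cause was not tested. Of 1200 recomputed fold changes of members, 1146 were not called and moved by less than the spread within diets. Another 50 were not called and moved by at least that spread, and 4 were called with the sign unchanged. Libraries of the same number were not treated as pairs. Correlations of their deviations from the diet means ran from −0.25 (HAMSA against HAMS, number 1) to 0.491 (HAMSB against HAMSA, number 2). In HAMSB against NP they were 0.189 and 0.207. What the numbers stand for was not tested. With a replicate block 0 members were called in each comparison. Calls over all genes went to 378 with the block against 650 without it in HAMS against NP, and to 163 against 252 in HAMSB against HAMS. They went to 2 against 117 in HAMSB against HAMSA, 0 against 212 in HAMSA against NP and 5 against 11 in HAMSB against NP. DESeq2 called 1264, 602, 576, 1295 and 124 genes in these 5 comparisons, and 103 in HAMSA against HAMS, where edgeR called 0. With the longest transcript as the length, shares of the summed level became 31.2% for Hdac10, 13.5% for Hdac1, 10.4% for Hdac3, 9.62% for Hdac5, 3.95% for Hdac6, 2.35% for Hdac8, 1.94% for Hdac9 and 0.734% for Hdac4, because the lengths differ. A fit within numbers 5 and 6 leaves some diets with 1 library, assumed to vary like the others. The block also ended the calls of Sap30l, Ing2 and Sik1 in HAMSB against HAMSA, of Mef2d, Ywhae and Ywhag in HAMS against NP and both of Cdkn1a. Recomputing the partner genes under the same settings was chosen after seeing the data. Depth limits Hdac4 most, with 70 counts in its lowest library.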
